A study of Mus musculus with 12 samples.

Results

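Collagen chain genes were described across 12 libraries of gonadal fat from pregnant mice. They were taken as every symbol made of Col, a type number, the letter a and a chain number, which gave 44 of the 20632 symbols in the count tables. Of these 44 genes, 29 had enough counts to be tested, out of 12175 tested genes in all. The fibrillar class (types I, II, III, V and XI) had 9 genes, 6 of them tested. The basement membrane class (types IV, XV and XVIII) had 8 genes with 7 tested, the microfibrillar class (type VI) had 6 with 5 tested, and all other types had 21 with 11 tested.

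The tissue was gonadal (peri-uterine) white adipose tissue, taken at E17.5 of pregnancy, with 4 libraries in each of 3 groups. KO Treg and KO vehicle both carried the knockout of Tnfrsf11a (Rank) with Foxn1 Cre, and received the treatment labelled Treg or vehicle. WT vehicle had the same labelled allele without Cre and received vehicle. Foxn1 is best known from thymic epithelium and skin, so the Cre is not one directed at fat cells, and the labels used here do not describe the Treg treatment further. Each library carries its own animal number and was taken as 1 animal.

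Collagens are trimers of alpha chains and form the main protein scaffold outside cells. Type I, III and V chains build fibrils, type IV chains build the sheet-like network of the basement membranes around adipocytes and vessels, and type VI chains build beaded microfilaments that are abundant around fat cells. New chains are hydroxylated and folded inside the cell, trimmed outside it and cross-linked by lysyl oxidases. Adipocytes, fibroblasts, endothelial cells and smooth muscle cells all make collagens. In whole fat, fewer cells of a type and less RNA per cell cannot be told apart.

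The genes of the main type IV chains, Col4a1 and Col4a2, lie head to head, and their promoter windows are shown because the levels of the pair are compared further on. Col4a1 lies on the minus strand of chromosome 8 (11198423 to 11312826, GRCm38, GENCODE M21) and Col4a2 on the plus strand (11312805 to 11449287), so the genes share 22 bases at their starts. The other type IV pairs also lie head to head, with 71 bases between Col4a4 and Col4a3 on chromosome 1 and 1308 bases between Col4a6 and Col4a5 on chromosome X. The RefSeq windows of GRCm38.p6 run from 250 bases before to 50 bases after each start, at chr8:11312777-11313076 (minus strand) for Col4a1 and chr8:11312555-11312854 (plus strand) for Col4a2. Each is printed 5′ to 3′ on its own strand, and capitals mark the 78 bases that lie in both windows and read as reverse complements of each other.
Col4a1: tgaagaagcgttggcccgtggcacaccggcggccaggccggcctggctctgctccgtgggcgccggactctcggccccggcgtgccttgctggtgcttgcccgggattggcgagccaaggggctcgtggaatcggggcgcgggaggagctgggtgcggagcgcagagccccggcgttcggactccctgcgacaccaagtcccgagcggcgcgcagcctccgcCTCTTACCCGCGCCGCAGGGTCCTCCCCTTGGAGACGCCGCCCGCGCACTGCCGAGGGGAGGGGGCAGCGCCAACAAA
Col4a2: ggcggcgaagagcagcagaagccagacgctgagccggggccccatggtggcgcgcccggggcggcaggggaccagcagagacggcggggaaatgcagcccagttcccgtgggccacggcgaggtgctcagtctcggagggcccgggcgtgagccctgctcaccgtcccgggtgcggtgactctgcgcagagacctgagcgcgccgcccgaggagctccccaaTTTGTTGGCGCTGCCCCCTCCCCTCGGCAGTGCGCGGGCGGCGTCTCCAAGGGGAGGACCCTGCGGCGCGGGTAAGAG
The shared stretch holds CCCTCCCC in the direction of Col4a2, which reads GGGGAGGG in that of Col4a1, a motif picked after these sequences were seen. Windows were matched for 35 of the 44 members (38 windows). On either strand, CCCTCCCC was in 11 of the 38 windows and in 10.8% of all 32851 windows. The 11 include the printed windows, where the motif was picked and which share the same copy, and overlapping windows of Col6a2. They are therefore not independent, and the shares cannot be compared as a test. CCAAT was in 13 of the 38 (37.4% of all windows), GGGCGG in 23 (35.7%) and TATAAA in 5 (13.6%). These are matches of letters and carry no measure of binding.

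Libraries held 5551967 to 12972655 counts. Summed white adipocyte markers, 6 of 6 of which were tested, lay between 28922 and 47133 CPM, that is counts per 1000000 of the TMM-scaled library total, in the 12 libraries. Of 8 placental markers 1 passed the filter, and the sum of the 8 was 261 CPM in KO Treg 2 and 97.5 CPM in KO vehicle 1, against 12.7 to 31.9 CPM in the other libraries. Summed thermogenic markers (5 of 5 tested) reached 2057 CPM in KO vehicle 2, 1117 CPM in KO vehicle 3 and, in the wild type, 5260 CPM in WT vehicle 1, with at most 373 CPM elsewhere. Fibroblast and progenitor markers (8 of 8) ran from 7273 to 12861 CPM in KO Treg, lay between 7671 and 13700.1 CPM in KO vehicle and ran from 7343 to 9555 CPM in WT vehicle. Most of that sum was Gsn, at 6928 to 12444 CPM in KO Treg, 7327 to 13289 CPM in KO vehicle and 7007 to 9122 CPM in WT vehicle. Cd34, another marker on that list, was at 100.3 to 122 CPM in KO Treg, 79.4 to 84.8 CPM in KO vehicle and 95.9 to 130.4 CPM in WT vehicle, so all KO vehicle libraries were below all others. No other marker on the list did this: in each, KO vehicle overlapped both other groups. Ly6a, for example, was at 84.6 to 164 CPM in KO Treg, 136 to 171 CPM in KO vehicle and 126 to 147 CPM in WT vehicle. Smooth muscle markers (8 of 8) ran from 214 to 1221 CPM in KO Treg, lay between 322 and 836 CPM in KO vehicle and ran from 258 to 2158 CPM in WT vehicle. WT vehicle 1 was at 258 CPM, and the other WT vehicle libraries, at 1287 to 2158 CPM, were above every KO vehicle library. Endothelial markers (7 of 7) ran from 1038 to 1099, then 1063 to 1232, then 979.6 to 1199 CPM in the same order of groups. Their part in the collagen values was not tested beyond leaving out the placental or the thermogenic libraries. The animal numbers form a lower and a higher series, with 2 KO Treg and 2 WT vehicle animals and all 4 KO vehicle animals in the lower one.

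Collagen transcripts were a small part of each library, and the groups overlapped. They made up 0.222% ± 0.0238 of all counts in KO Treg, 0.247% ± 0.0325 in KO vehicle and 0.227% ± 0.0334 in WT vehicle (mean ± SD, n = 4 each). Single libraries ran from 0.197% to 0.254% in KO Treg, lay between 0.225% and 0.294% in KO vehicle and ran from 0.194% to 0.265% in WT vehicle. KO vehicle 1, which also had placental transcripts, had the highest share, and WT vehicle 4 the lowest. KO Treg 2, which had the highest sum of placental markers, had a collagen share of 0.218%.

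**Figure D1:**
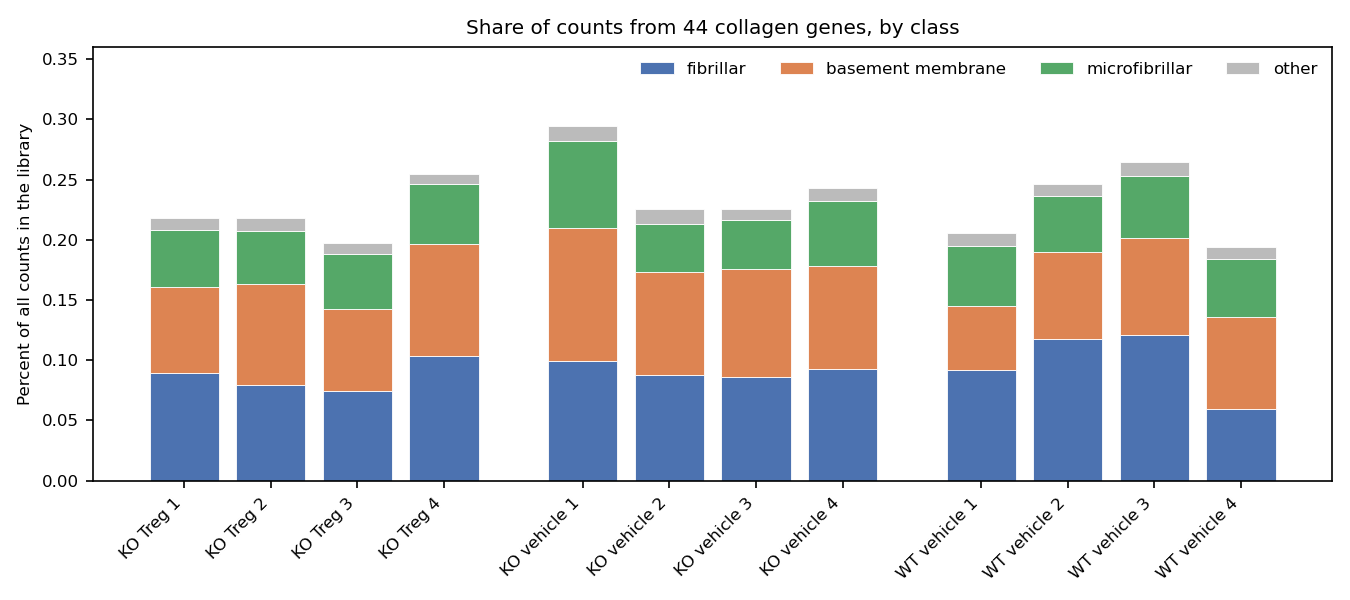
Share of all counts in each library (percent, vertical axis) from the 44 collagen genes, stacked by class, for KO Treg, KO vehicle and WT vehicle from left to right. Totals lie between 0.194% and 0.294%, and the fibrillar part is smallest in WT vehicle 4.

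A few genes held most of these counts. Reads came from the 3′ ends of transcripts, so the following are shares of counts, with no correction for length. Col4a1 gave 18.2% of all collagen counts, Col1a2, the second chain of type I, gave 16.8%, and Col6a3, the large chain of type VI, gave 15.3%. With Col3a1 (8.78%), Col4a2 (8.41%) and Col15a1 (5.80%), these 6 genes gave 73.2%. All 29 tested members had counts in all 12 libraries. The other 15 held 214 counts in all, 0.0886% of the collagen counts, with at most 11 in a library. Among them were chains known from cartilage. Col2a1 was at 0 in every library, where 3 counts would have been 0.241 to 0.539 CPM, Col10a1 had 1 count and Col9a1 had 2. Of 5 cartilage markers, Acan, Matn1 and Matn3 were also at 0 throughout, Comp was at 0 in all KO Treg libraries and at most 0.305 CPM in the others, and Sox9, which other cells also express, was at 3.52 to 11.7 CPM in the 12 libraries. At the filter, Col7a1 with 131 counts was the lowest gene inside and Col4a3 with 48 the highest outside.

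Fibrillar chains made up 39.0% ± 2.31 of collagen counts in KO Treg, 37.3% ± 2.38 in KO vehicle and 42.2% ± 7.66 in WT vehicle. Basement membrane chains made up 35.6% ± 2.40 in KO Treg, 37.5% ± 1.89 in KO vehicle and 31.3% ± 5.63 in WT vehicle (n = 4 each). The spread was widest in WT vehicle, where WT vehicle 4 had 30.9% fibrillar and 39.3% basement membrane counts. Type VI chains made up 21.2% ± 1.49, 20.6% ± 3.25 and 21.9% ± 3.10 in the same order, and all other types 4.17% ± 0.836, 4.58% ± 0.538 and 4.60% ± 0.460. The ranges of the 3 groups overlapped in each class, and these sums were not tested.

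**Figure D2:**
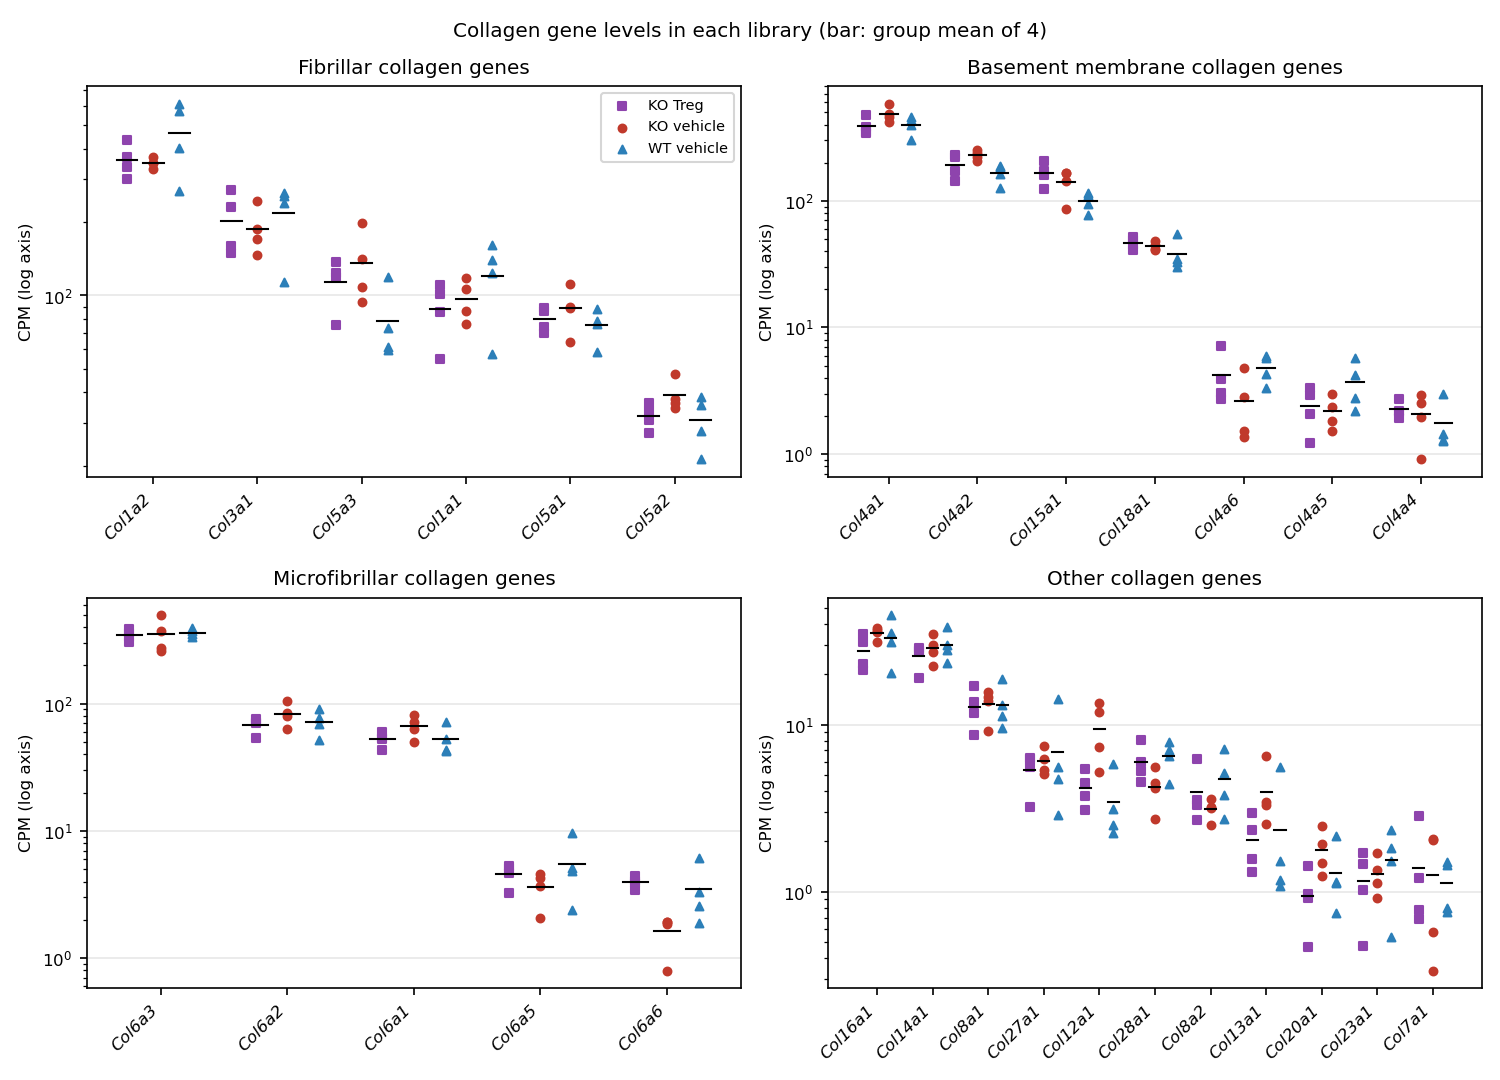
Level of each tested collagen gene (CPM, log axis) in each library, by class, with KO Treg, KO vehicle and WT vehicle from left to right above each gene; points are libraries and bars group means of 4. The groups overlap for nearly all genes, and Col12a1 is highest in KO vehicle 2.

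The first comparison set the fat of knockouts given vehicle against that of wild types given vehicle, the contrast of genotype. No collagen passed the edgeR quasi-likelihood test with Benjamini-Hochberg adjustment: 0 of 29 were called, against 0.279% of all tested genes (34 of 12175, with 0.197% higher and 0.0821% lower). At an unadjusted p under 0.05 there were 7 of 29, against 12.4% of all tested genes. Of the 29, 4 were higher in KO vehicle, against 6.98% of all tested genes, and 3 were lower, against 5.45%. DESeq2 called 1 of 29 collagens, Col12a1, against 259 of all 12175 tested genes. With limma voom and quality weights, 0 of 29 were called, against 44 of 12175. Groups did not overlap for 1 of 29, Col4a2, against 6.51% of all tested genes. The median log2 fold change was 0.11 over the 29 collagens, 16 of them above 0, and -0.00 over all tested genes. The collagen median turned sign without KO vehicle 4 (-0.06) and with the number series as a covariate (-0.04). By class the medians were 0.00 for fibrillar, 0.25 for basement membrane and -0.05 for type VI chains.

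Col12a1 had the smallest p among the collagens. It encodes the chain of type XII collagen, which sits on the surface of type I fibrils, and lies on chromosome 9 (79598991 to 79718831, minus strand). It was at 11.9, 13.4, 7.32 and 5.18 CPM in KO vehicle 1 to 4, against 3.14, 2.25, 2.52 and 5.83 CPM in WT vehicle 1 to 4. WT vehicle 4 lay above KO vehicle 4, and the other WT vehicle libraries lay below all of KO vehicle. The log2 fold change was 1.46 ± 0.34 (SE), which did not pass (edgeR adjusted p = 0.0836). It was called without WT vehicle 4 (1.82, edgeR adjusted p = 0.0278) and with DESeq2 (adjusted p = 0.00758), and the adjusted p ran from 0.00758 to 0.380 over all alternatives. Without the placental libraries the log2 fold change was 1.33 and without the thermogenic libraries 1.24, neither called. Col12a1 had 14 to 130 counts per library.

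Among basement membrane chains, Col4a2 was at 251, 206, 241 and 220.4 CPM in KO vehicle 1 to 4, against 127, 184, 189 and 163 CPM in WT vehicle 1 to 4. Every KO vehicle library was above every WT vehicle library, with a fold change that did not pass (log2 fold change 0.47 ± 0.16, edgeR adjusted p = 0.217). Its partner Col4a1 was at 584, 458, 488 and 421 CPM in KO vehicle 1 to 4, against 302, 399.98, 433 and 459.7 CPM in WT vehicle 1 to 4. These overlapped, since WT vehicle 3 and WT vehicle 4 lay above KO vehicle 4 (log2 fold change 0.29 ± 0.16, edgeR adjusted p = 0.485). Col15a1, a collagen of the zone next to basement membranes, was at 167, 86, 166 and 143 CPM in KO vehicle 1 to 4, against 94.5, 116, 111 and 76.9 CPM in WT vehicle 1 to 4. KO vehicle 2 lay within the WT vehicle range and the other KO vehicle libraries lay above it (log2 fold change 0.50 ± 0.21, edgeR adjusted p = 0.329). Col18a1, which encodes the precursor of endostatin, averaged 44 ± 3.35 CPM in KO vehicle and 38 ± 11.5 CPM in WT vehicle (edgeR adjusted p = 0.660). The less counted chain genes had wide spreads. Col4a4 averaged 2.09 ± 0.876 CPM in KO vehicle and 1.75 ± 0.839 CPM in WT vehicle. Col4a5 averaged 2.18 ± 0.648 CPM in KO vehicle and 3.72 ± 1.59 CPM in WT vehicle. Col4a6 averaged 2.62 ± 1.57 CPM in KO vehicle and 4.80 ± 1.25 CPM in WT vehicle. None of these 3 passed (edgeR adjusted p = 0.859, 0.454 and 0.387).

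The type I and III chains had lower means in KO vehicle, without passing. Col1a2 was at 351, 369.6, 329 and 352 CPM in KO vehicle 1 to 4, against 402, 572, 613 and 269.6 CPM in WT vehicle 1 to 4. The KO vehicle libraries were close together, while WT vehicle 4 was the lowest and WT vehicle 3 the highest of these 8 (log2 fold change -0.41 ± 0.20, edgeR adjusted p = 0.441). Col1a1, the first chain of type I, was at 106, 118, 86.7 and 76.7 CPM in KO vehicle 1 to 4, against 124, 140.4, 161 and 57.6 CPM in WT vehicle 1 to 4 (log2 fold change -0.32 ± 0.28, edgeR adjusted p = 0.714). Col3a1, the type III chain, was at 244, 146, 171 and 187 CPM in KO vehicle 1 to 4, against 240.1, 264, 257 and 114 CPM in WT vehicle 1 to 4 (log2 fold change -0.22 ± 0.26, edgeR adjusted p = 0.796). WT vehicle 4 was the lowest of these 8 libraries for each of the 3 genes. When single libraries were left out, the log2 fold change ran from -0.55 (without WT vehicle 4) to -0.16 (without WT vehicle 3) for Col1a1. For Col1a2 it ran from -0.59 to -0.26 without the same libraries, and for Col3a1 from -0.44 without WT vehicle 4 to -0.12 without WT vehicle 2. Without the thermogenic libraries the log2 fold change of Col3a1 was 0.02.

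The type V chains, which join type I chains in fibrils and limit their width, had higher means in KO vehicle. Col5a3 was at 108, 94, 199 and 142 CPM in KO vehicle 1 to 4, against 73.3, 119, 61.3 and 59.7 CPM in WT vehicle 1 to 4. WT vehicle 2 lay above KO vehicle 1 and KO vehicle 2 (log2 fold change 0.79 ± 0.27, edgeR adjusted p = 0.230), and within the lower number series the log2 fold change was 0.48 (edgeR adjusted p = 0.682). Col5a1 averaged 88.8 ± 19.2 CPM in KO vehicle and 75.5 ± 12.1 CPM in WT vehicle, and Col5a2 averaged 39 ± 5.86 CPM in KO vehicle and 30.7 ± 7.76 CPM in WT vehicle. Neither passed (edgeR adjusted p = 0.621 and 0.446).

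Type VI chains differed in sign. Col6a3 was at 495, 257, 276 and 370.2 CPM in KO vehicle 1 to 4, against 390.3, 351, 337 and 369 CPM in WT vehicle 1 to 4. It varied more within KO vehicle, where KO vehicle 1 was the highest and KO vehicle 2 the lowest of these 8 (log2 fold change -0.05 ± 0.18, edgeR adjusted p = 0.948). Its log2 fold change was 0.06 without KO vehicle 2, 0.04 without KO vehicle 3 and 0.28 without the thermogenic libraries. Col6a1 averaged 66.6 ± 13.4 CPM in KO vehicle and 52.5 ± 13.4 CPM in WT vehicle, and Col6a2 averaged 83.2 ± 17.1 CPM in KO vehicle and 71.9 ± 16.4 CPM in WT vehicle (edgeR adjusted p = 0.461 and 0.696). Col6a6, a chain that resembles the one encoded by Col6a3, was at 0.799, 1.86, 1.91 and 1.93 CPM in KO vehicle 1 to 4, against 3.30, 2.57, 6.11 and 1.90 CPM in WT vehicle 1 to 4. Only WT vehicle 4 lay within the KO vehicle range (log2 fold change -1.05 ± 0.37, edgeR adjusted p = 0.228). Col6a6 (chromosome 9, 105687809 to 105828160, minus strand) had 7 to 41 counts per library. Col6a5, a gene of the same kind, averaged 3.63 ± 1.12 CPM in KO vehicle and 5.50 ± 3.05 CPM in WT vehicle (edgeR adjusted p = 0.564).

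Of the 11 tested genes of other types, the most counted were Col16a1, Col14a1 and Col8a1, with groups that lay close. Col16a1 averaged 35.5 ± 2.86 CPM in KO vehicle and 33 ± 10.2 CPM in WT vehicle. Col14a1, a fibril-associated chain, averaged 28.6 ± 5.28 CPM in KO vehicle and 29.9 ± 6.35 CPM in WT vehicle. Col8a1, a short chain that forms networks under endothelium, averaged 13.3 ± 2.91 CPM in KO vehicle and 13.1 ± 4.01 CPM in WT vehicle. Their edgeR adjusted p-values were 0.883, 0.938 and 0.992. Col28a1 averaged 4.24 ± 1.17 CPM in KO vehicle and 6.46 ± 1.47 CPM in WT vehicle (edgeR adjusted p = 0.372). The remaining 6, apart from Col12a1, had edgeR adjusted p-values between 0.523 for Col8a2 and 0.937 for Col7a1, the anchoring fibril chain.

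**Figure D3:**
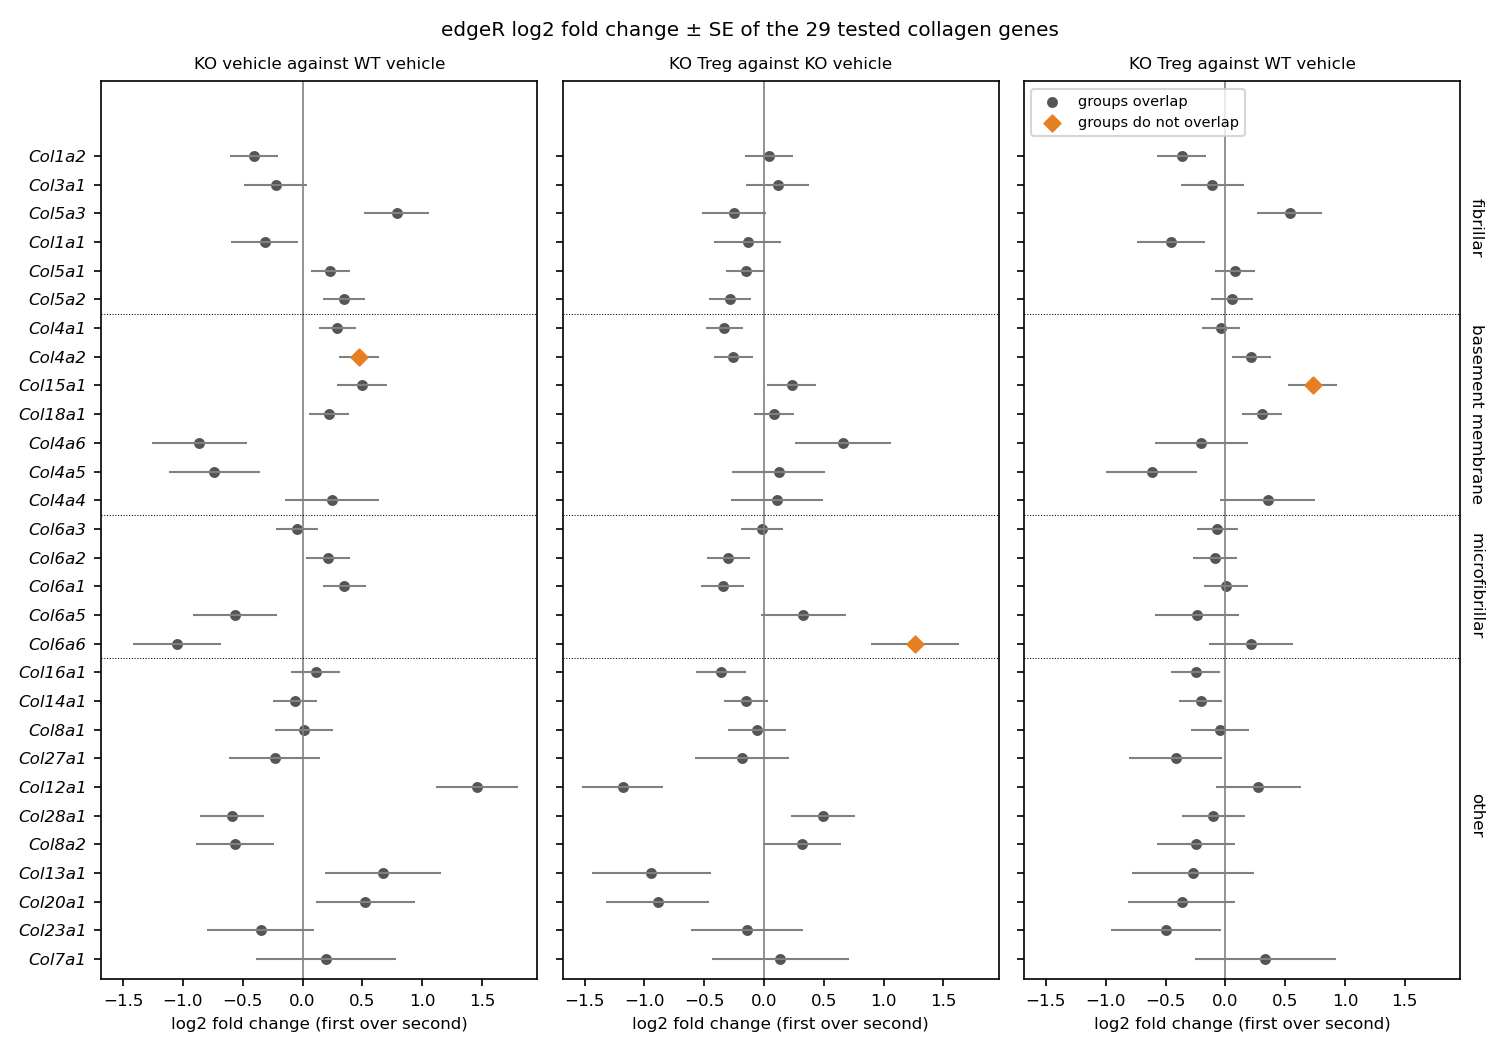
Log2 fold change from edgeR (horizontal axis, first group over second) with its SE for the 29 tested collagen genes in the 3 comparisons; diamonds mark genes whose groups did not overlap. These are Col4a2, Col6a6 and Col15a1, 1 in each comparison, and no gene shown passed the adjusted test.

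The second comparison set knockouts given the treatment labelled Treg against knockouts given vehicle. Again 0 of 29 collagens passed (edgeR), against 0.00821% of all tested genes (1 of 12175). DESeq2 and limma voom also called 0 of 29, against 68 and 1 of all 12175 tested genes. At an unadjusted p under 0.05 there were 2 of 29, against 8.77% of all tested genes. Of these, 1 was higher in KO Treg, against 3.69% of all tested genes, and 1 was lower, against 5.08%. Groups did not overlap for 1 of 29, against 5.04%. The median log2 fold change was -0.14 over the collagens, 17 of them below 0, and -0.00 over all tested genes. The collagen median was 0.02 without KO Treg 3, -0.01 without KO vehicle 4 and -0.03 with the number series as a covariate. This comparison shares the KO vehicle libraries with the first, so opposite signs between them are not independent results.

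Col6a6 was the gene whose groups did not overlap, at 4.38, 3.43, 4.04 and 3.88 CPM in KO Treg 1 to 4, against 0.799, 1.86, 1.91 and 1.93 CPM in KO vehicle 1 to 4. All KO Treg libraries were above all KO vehicle ones (log2 fold change 1.26 ± 0.37, edgeR adjusted p = 0.307), and without the placental libraries the log2 fold change was 1.11. WT vehicle, at 1.90 to 6.11 CPM, spanned the KO Treg values. Col12a1 was at 3.08, 4.45, 5.44 and 3.76 CPM in KO Treg 1 to 4, against 11.9, 13.4, 7.32 and 5.18 CPM in KO vehicle 1 to 4. KO Treg 3 lay just above KO vehicle 4, and the other KO Treg libraries lay below all of KO vehicle (log2 fold change -1.18 ± 0.34, edgeR adjusted p = 0.306). Over the alternatives its adjusted p ran from 0.0938 with DESeq2 to 0.754.

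The next smallest p-values were those of Col4a1, Col20a1 and Col6a1. Col4a1 was at 348, 382, 346 and 476 CPM in KO Treg 1 to 4, against 584, 458, 488 and 421 CPM in KO vehicle 1 to 4. KO Treg 4 lay inside the KO vehicle range and the other KO Treg libraries below it (log2 fold change -0.33 ± 0.16, edgeR adjusted p = 0.576). Col20a1 averaged 0.943 ± 0.391 CPM in KO Treg and 1.78 ± 0.546 CPM in KO vehicle (edgeR adjusted p = 0.578), with 3 to 24 counts per library. Col6a1 averaged 52.4 ± 6.89 CPM in KO Treg and 66.6 ± 13.4 CPM in KO vehicle (edgeR adjusted p = 0.625). Col4a2 averaged 192 ± 41 CPM in KO Treg and 229.6 ± 20.2 CPM in KO vehicle (edgeR adjusted p = 0.705). Col15a1 averaged 165 ± 34.1 CPM in KO Treg and 141 ± 38 CPM in KO vehicle (edgeR adjusted p = 0.827). The most counted fibrillar and microfibrillar chains lay close. Col1a2 averaged 361 ± 57.1 CPM in KO Treg and 351 ± 16.5 CPM in KO vehicle, Col3a1 averaged 203 ± 58 CPM in KO Treg and 187 ± 41.6 CPM in KO vehicle and Col6a3 averaged 346 ± 35.3 CPM in KO Treg and 349.5 ± 109 CPM in KO vehicle (edgeR adjusted p = 0.979, 0.947 and 0.99).

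The third comparison set treated knockouts against wild types, and shares libraries with both others. Here 0 of 29 collagens passed (edgeR, DESeq2 and limma voom), against 0% of all tested genes with edgeR. Of all 12175 tested genes, DESeq2 called 1 and limma voom 0. At an unadjusted p under 0.05 there was 1 of 29, against 2.87% of all tested genes (1.54% higher and 1.32% lower). It was higher in KO Treg. The same gene was the 1 of 29 whose groups did not overlap, against 1.63%. That gene was Col15a1 (chromosome 4, 47208161 to 47313167, plus strand), at 159.6, 172, 123 and 206 CPM in KO Treg 1 to 4, against 94.5, 116, 111 and 76.9 CPM in WT vehicle 1 to 4. All KO Treg libraries were above all WT vehicle ones, with a fold change that did not pass (log2 fold change 0.73 ± 0.21, edgeR adjusted p = 1.0). Leaving out single libraries gave log2 fold changes of 0.61 to 0.85.

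Next in order of p were Col5a3, Col18a1, Col1a2 and Col4a5. Col5a3 averaged 114 ± 26.5 CPM in KO Treg and 78.4 ± 27.9 CPM in WT vehicle (log2 fold change 0.54 ± 0.27), and the log2 fold change was 0.03 within the lower number series. Col18a1 averaged 46.7 ± 4.83 CPM in KO Treg and 38 ± 11.5 CPM in WT vehicle. Col1a2 averaged 361 ± 57.1 CPM in KO Treg and 464 ± 159 CPM in WT vehicle. Col4a5 averaged 2.39 ± 0.944 CPM in KO Treg and 3.72 ± 1.59 CPM in WT vehicle. Each of these 4 genes had an edgeR adjusted p of 1.0. An F-test over the 3 groups within that edgeR model called 0 of the 29 collagens and 4 of all 12175 genes, with 5 of 29 and 1149 of 12175 at an unadjusted p under 0.05. Col12a1 had the smallest adjusted p of the collagens there (edgeR, 0.142), followed by Col6a6 (0.305) and Col15a1 (0.311).

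**Figure D4:**
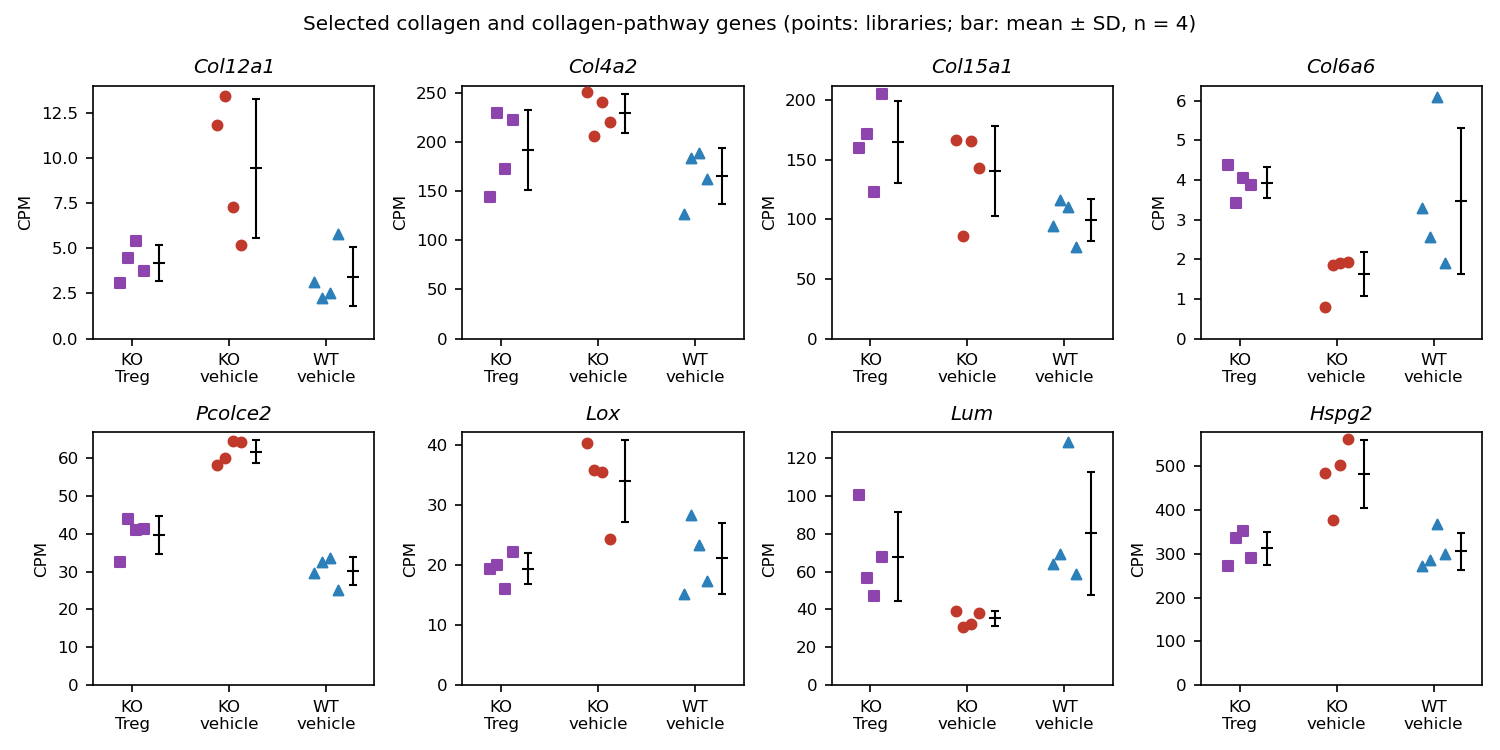
Level (CPM, linear axis from 0) of 4 collagen genes and of Pcolce2, Lox, Lum and Hspg2 in each library; points are libraries, and bars the mean ± SD of 4 in KO Treg, KO vehicle and WT vehicle from left to right. Pcolce2 passed the adjusted test in KO vehicle against WT vehicle, at 61.8 ± 3.08 CPM against 30.2 ± 3.74 CPM.

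Genes that make, trim, cross-link, bind, sense and break down collagens were taken as 7 lists by textbook role, with 97 tested genes in all. In KO vehicle against WT vehicle, 1 of the 97 passed (edgeR), against 0.279% of all tested genes. At an unadjusted p under 0.05, 18 of the 97 were higher, against 6.98% of all tested genes, and 7 were lower, against 5.45%. The called gene was Pcolce2, which encodes an enhancer of the protease that trims fibrillar procollagens. Pcolce2 was at 58.3, 60.1, 64.5 and 64.3 CPM in KO vehicle 1 to 4, against 29.6, 32.5, 33.6 and 25.2 CPM in WT vehicle 1 to 4. It rose in KO vehicle, with every library above every WT vehicle library (log2 fold change 1.03 ± 0.13, edgeR adjusted p = 0.00732). KO Treg, at 32.5, 44, 41 and 41.3 CPM, lay below all of KO vehicle (log2 fold change -0.64 ± 0.13, edgeR adjusted p = 0.248). The call in KO vehicle against WT vehicle held when any single library was left out, with log2 fold changes of 0.96 to 1.07. It was lost with the number series as a covariate (edgeR adjusted p = 0.0533), in the lower series alone (0.193) and without the thermogenic libraries (0.147), at log2 fold changes of 1.04, 0.98 and 0.999. Its relative Pcolce averaged 24 ± 3.68 CPM in KO vehicle and 31.2 ± 7.84 CPM in WT vehicle (edgeR adjusted p = 0.401).

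No other list member was called in this comparison (edgeR), and the values that follow did not pass that test. Groups without overlap are given for the named genes only, and 6.51% of all tested genes had such groups here. Lox, which encodes a lysyl oxidase, was at 40.3, 35.9, 35.5 and 24.4 CPM in KO vehicle 1 to 4, against 15.2, 28.4, 23.4 and 17.4 CPM in WT vehicle 1 to 4. KO vehicle 4 alone lay within the WT vehicle range (log2 fold change 0.69 ± 0.20, edgeR adjusted p = 0.156). Of the 20 processing enzymes, 14 were above 0 and 6 below, with a median log2 fold change of 0.16. P3h1, a prolyl 3-hydroxylase, averaged 37.8 ± 8.48 CPM in KO vehicle and 23.9 ± 3.18 CPM in WT vehicle. Plod2, a lysyl hydroxylase, averaged 19.2 ± 1.81 CPM in KO vehicle and 30.8 ± 7.45 CPM in WT vehicle. Colgalt2, which adds galactose to collagens, averaged 1.87 ± 0.499 CPM in KO vehicle and 4.05 ± 1.54 CPM in WT vehicle. Their edgeR adjusted p-values were 0.0925, 0.101 and 0.160, and the groups of P3h1 and Plod2 did not overlap.

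Of the 14 fibril-associated genes, 7 were above and 7 below 0. Lum, the proteoglycan lumican of collagen fibrils, was at 39.4, 30.9, 32.5 and 38.1 CPM in KO vehicle 1 to 4, against 63.9, 69.2, 129 and 58.9 CPM in WT vehicle 1 to 4. All KO vehicle libraries were below all WT vehicle ones (log2 fold change -1.18 ± 0.26, edgeR adjusted p = 0.0836). Prelp, a related leucine-rich proteoglycan, averaged 229 ± 21 CPM in KO vehicle and 94.2 ± 25 CPM in WT vehicle (edgeR adjusted p = 0.104). Sparc, which encodes a collagen-binding matrix protein, averaged 3154 ± 573 CPM in KO vehicle and 1943 ± 455 CPM in WT vehicle (edgeR adjusted p = 0.111). Groups did not overlap for these 3 genes. Of the 14 basement membrane partners, 8 were above and 6 below 0. Hspg2, which encodes perlecan, was at 484, 377, 504 and 562 CPM in KO vehicle 1 to 4, against 271, 286, 368 and 299 CPM in WT vehicle 1 to 4. The groups did not overlap (log2 fold change 0.66 ± 0.15, edgeR adjusted p = 0.0819). Nid1, the gene of nidogen-1, averaged 241 ± 38 CPM in KO vehicle and 173 ± 29.2 CPM in WT vehicle, and Lama4, of a laminin chain, averaged 127 ± 16.7 CPM in KO vehicle and 93.7 ± 14.4 CPM in WT vehicle (edgeR adjusted p = 0.229 and 0.169). The groups of Nid1 did not overlap, and those of Lama4 did.

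Of the 14 genes of collagen breakdown and its inhibitors, 6 were above and 8 below 0. The gelatinase genes differed in sign. Mmp9 averaged 71 ± 23.4 CPM in KO vehicle and 41 ± 6.05 CPM in WT vehicle, and Mmp2 averaged 33.5 ± 2.81 CPM in KO vehicle and 46.7 ± 9.48 CPM in WT vehicle (edgeR adjusted p = 0.0836 and 0.165). The groups of Mmp9 did not overlap, and those of Mmp2 did. Mmp14, a membrane-bound collagenase, averaged 68.4 ± 18.4 CPM in KO vehicle and 102 ± 35.2 CPM in WT vehicle (edgeR adjusted p = 0.339). Of the 11 receptors 6 were above 0, and Itga1, a collagen-binding integrin chain, had the smallest p at 48.6 ± 5.86 CPM in KO vehicle and 37.6 ± 3.98 CPM in WT vehicle (edgeR adjusted p = 0.422). Of the 14 profibrotic signalling genes 6 were above 0. At an unadjusted p under 0.05 (edgeR), 2 of the 14 were higher, against 6.98% of all tested genes, and 0 were lower, against 5.45%. DESeq2 called 259 genes in this comparison, among them P3h1, Plod2, Lum, Prelp, Sparc, Hspg2, Mmp9 and Pcolce2, which are named here for their small edgeR p-values.

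In KO Treg against KO vehicle, 0 of the 97 passed (edgeR), against 0.00821% of all tested genes. At an unadjusted p under 0.05, 5 of the 97 were higher in KO Treg, against 3.69% of all tested genes, and 16 were lower, against 5.08%. DESeq2 called 68 genes in this comparison, among them Pcolce2, Lox and Hspg2 of the genes named here for their small edgeR p-values, all lower in KO Treg (DESeq2 adjusted p = 0.00765, 0.0495 and 0.0220). Lox averaged 19.4 ± 2.57 CPM in KO Treg and 34 ± 6.78 CPM in KO vehicle, and Hspg2 averaged 313 ± 37.9 CPM in KO Treg and 482 ± 77.2 CPM in KO vehicle (edgeR adjusted p = 0.260 and 0.248). For both, all KO Treg libraries were below all KO vehicle ones. In this comparison 5.04% of all tested genes had groups that did not overlap. Lum averaged 68 ± 23.3 CPM in KO Treg and 35.2 ± 4.14 CPM in KO vehicle, and Ogn, the related osteoglycin gene, averaged 64.7 ± 12.3 CPM in KO Treg and 38.7 ± 3.99 CPM in KO vehicle (edgeR adjusted p = 0.306 and 0.351). For these, all KO Treg libraries were above all KO vehicle ones. Of the 20 processing enzymes 14 were below 0, among them Serpinh1, the collagen chaperone, at 593 ± 102 CPM in KO Treg and 819 ± 102 CPM in KO vehicle (edgeR adjusted p = 0.356). Colgalt2 averaged 4.09 ± 1.14 CPM in KO Treg and 1.87 ± 0.499 CPM in KO vehicle, with no overlap (edgeR adjusted p = 0.313). Ddr1, a collagen receptor kinase, averaged 218 ± 49.6 CPM in KO Treg and 153 ± 24.2 CPM in KO vehicle, with no overlap (edgeR adjusted p = 0.446). For Lamb3 and Lama4, all KO Treg libraries lay below all KO vehicle ones (edgeR adjusted p = 0.306 and 0.517). Lamb3 averaged 1.27 ± 0.293 CPM in KO Treg and 3.72 ± 2.45 CPM in KO vehicle. Lama4 averaged 102 ± 7.16 CPM and 127 ± 16.7 CPM in the same order. Means were also lower for P3h1 (27.3 ± 1.92 and 37.8 ± 8.48 CPM) and Thbs1 (31.2 ± 20.1 and 108 ± 57.9 CPM). Their groups overlapped (edgeR adjusted p = 0.400 and 0.461).

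In KO Treg against WT vehicle, 0 of the 97 passed (edgeR), against 0% of all tested genes. At an unadjusted p under 0.05 there were 3 of 97, a share close to the 2.87% of all tested genes, so their values are given as a description. Pcolce2 averaged 39.7 ± 4.99 CPM in KO Treg and 30.2 ± 3.74 CPM in WT vehicle, with groups that overlapped. Mmp9 averaged 58.9 ± 4.11 CPM in KO Treg and 41 ± 6.05 CPM in WT vehicle, with groups that did not, as for 1.63% of all tested genes. Ltbp2, a relative of the latent growth factor binding proteins, averaged 2.35 ± 0.441 CPM in KO Treg and 4.57 ± 2.71 CPM in WT vehicle. Each had an edgeR adjusted p of 1.0.

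Chains were compared over the 12 libraries as 7 pairs, on log2 CPM. Each pair was of the same trimer or fibre except Col15a1 with Col18a1, which are of different types in the basement membrane class. Two-sided permutation tests of 100000 resamples were adjusted by Benjamini-Hochberg over the 7. Col1a1 and Col1a2, the chains of type I, had a Pearson r of 0.88 and a Spearman rho of 0.91 (permutation p = 0.00026 and 0.0001, adjusted 0.00182 and 0.0007). Without KO Treg 3 and WT vehicle 4, the libraries farthest from the median of Col1a1, r was 0.87. Their count ratio ran from 0.182 to 0.274 in KO Treg, lay between 0.218 and 0.319 in KO vehicle and ran from 0.214 to 0.308 in WT vehicle. Among 12174 other tested genes, Col1a2 ranked 3 by r with Col1a1, after Ska3 and Fam120b.

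Col6a1 and Col6a2 lie on the same strand of chromosome 10, and their products join in type VI collagen. They had r = 0.85 and rho = 0.85 (permutation p = 0.00055 and 0.00088, adjusted 0.00192 and 0.00308), and r = 0.79 without KO vehicle 1 and KO vehicle 4. Col6a2 ranked 7 by r with Col6a1. Col6a3, the chain that completes this trimer, had r = 0.27 and rho = 0.13 with Col6a1 (permutation p = 0.411 and 0.683, adjusted the same), ranked 2600 and had r = -0.31 without KO vehicle 1 and KO vehicle 4. The difference between these correlations was not tested. The Col6a1 to Col6a3 count ratio ran from 0.120 to 0.174 in KO Treg, lay between 0.165 and 0.228 in KO vehicle and ran from 0.111 to 0.212 in WT vehicle.

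Col4a1 and Col4a2, the head-to-head pair with the printed windows, had r = 0.78 and rho = 0.71 (permutation p = 0.00271 and 0.0134, adjusted 0.00632 and 0.0313). Without WT vehicle 1 and KO vehicle 1, r was 0.55. Col4a2 ranked 68 by r with Col4a1, and the first was Cd93, an endothelial receptor gene. The Col4a1 to Col4a2 count ratio ran from 1.66 to 2.42 in KO Treg, lay between 1.91 and 2.33 in KO vehicle and ran from 2.18 to 2.82 in WT vehicle. Exons of the pair overlap on opposite strands at their starts, and neither gene has an exon overlap with another gene within 1000 bases of its 3′ end.

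Col1a1 and Col3a1 had r = 0.74 and rho = 0.66 (permutation p = 0.00534 and 0.023, adjusted 0.00934 and 0.0402), and r = 0.59 without KO Treg 3 and WT vehicle 4. Col15a1 and Col18a1 had r = 0.58 and rho = 0.53 (permutation p = 0.0473 and 0.0786, adjusted 0.0662 and 0.0917), and r = 0.37 without WT vehicle 4 and KO Treg 4. Col5a1 and Col5a2 had r = 0.54 and rho = 0.61 (permutation p = 0.0688 and 0.0404, adjusted 0.0803 and 0.0566), and r = 0.19 without WT vehicle 4 and KO vehicle 4. These last pairs did not pass after adjustment. All 12 libraries were permuted together, so differences between the groups can add to r. With group means subtracted, r was 0.89 for Col1a1 with Col1a2, 0.83 for Col6a1 with Col6a2 and 0.73 for Col4a1 with Col4a2. It was then 0.77 for Col1a1 with Col3a1, 0.34 for Col15a1 with Col18a1, 0.43 for Col5a1 with Col5a2 and 0.41 for Col6a1 with Col6a3. Within the 8 libraries of the lower number series, r was 0.78 for Col1a1 with Col1a2, 0.86 for Col4a1 with Col4a2 and 0.81 for Col6a1 with Col6a2 (exact permutation, adjusted p = 0.0138, 0.0138 and 0.0273). There, r was 0.54 for Col1a1 with Col3a1, which did not pass (exact permutation, adjusted p = 0.228), and no Spearman rho passed, with 0.0538 the smallest adjusted p (exact permutation). The other values in that series were 0.70 for Col15a1 with Col18a1, 0.29 for Col5a1 with Col5a2 and 0.37 for Col6a1 with Col6a3. The higher series, with 4 libraries, was too small.

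**Figure D5:**
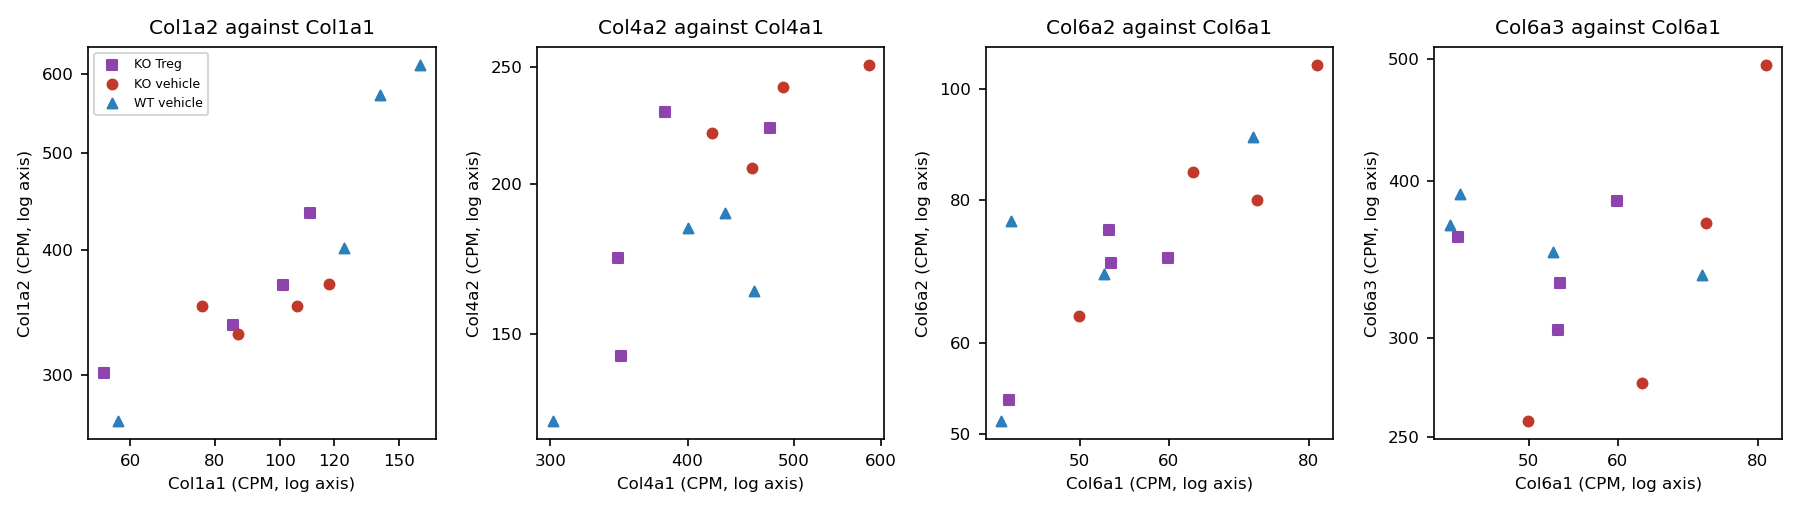
Levels of partner chains against each other in the 12 libraries (CPM, log axes), with a symbol each for KO Treg, KO vehicle and WT vehicle. Points lie nearer to a line for Col1a1 with Col1a2 (r = 0.88) and Col6a1 with Col6a2 (r = 0.85) than for Col6a1 with Col6a3 (r = 0.27).

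Members differed in how much they varied. Between the highest and the lowest of the 12 libraries, Col18a1 differed 1.84-fold, Col5a1 1.89-fold and Col6a1 1.91-fold, whereas Col7a1 differed 8.42-fold, Col6a6 7.64-fold and Col13a1 6.06-fold. The last 3 are low genes, where counting error is larger. The coefficient of variation of Col1a2 was 15.8% in KO Treg, 4.70% in KO vehicle and 34.2% in WT vehicle, while that of Col6a3 was 10.2%, 31.1% and 6.41% in the same order. WT vehicle 4 was the lowest of the 12 libraries for 9 of the 29 tested genes, among them Col1a2, Col3a1, Col5a1, Col5a2 and Col5a3. All 44 members were found in GENCODE M21. Exons of 3 tested members overlap another gene on the same strand (Col3a1, Col7a1 and Col20a1), so reads there could be left out or shared. Exons of 5 overlap a gene on the opposite strand (Col4a1, Col4a2, Col5a1, Col6a6 and Col15a1), which matters where counting ignored strand, and 0 of the 29 had such an overlap within 1000 bases of the 3′ end.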

How the data were processed

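Total RNA of 12 fat samples was isolated on RNeasy columns with DNase I and made into libraries with a QuantSeq 3′ kit (Lexogen), per the labels' protocols. Raw read counts for each gene symbol were deposited by the authors, 1 table per library. The submitters' processing notes name BWA 0.7.12, TopHat2 2.1.1, SAMtools 1.3.1, HTSeq 0.6.1 and the build mm10. Neither annotation nor strandedness of the counting is given in the sources used here.

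Counts of 20632 symbols were used as deposited, 4160 of them at 0 in every library, and 0 sample columns were left unused. Totals ran from 5551967 to 12972655, so 3 counts stand for 0.241 to 0.539 CPM, a floor that covers counting error only. After filterByExpr, 12175 genes were scaled by TMM and fitted for all 3 groups at once with edgeR 4.0.16 in R 4.3.3 (robust quasi-likelihood test, Benjamini-Hochberg adjusted p under 0.05). CPM values were computed from the counts with TMM-scaled library sizes, and correlations used log2 CPM with a prior count of 2 (Python 3.11.15, scipy 1.17.1). Alternatives were DESeq2 1.42.0, limma 3.58.1 (voom with quality weights), other scalings and filters, the number series of the animals, and left-out libraries.

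The collagen genes, the lists and the alternatives were chosen with earlier results of these data known. Named collagens are the 3 most counted tested genes of each class, partner-pair genes, and in each comparison those with groups that do not overlap and the 5 of smallest p. Named genes of each list come from the 3 of smallest p in each comparison; in KO Treg against WT vehicle only those with an unadjusted p under 0.05 are given. Other collagens are given for completeness, chosen after their values were seen. Within the lower number series the pairs were compared as an alternative added after seeing the data. A gene of the profibrotic signalling list is not reported here.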

Additional observations from a re-analysis of the deposited data

Results flagged for a closer look

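In each group of 4 libraries, the highest or lowest value of each tested collagen gene was set against the other 3. In 5 of 87 such groups the gap to the nearest other library was a larger part of the whole range than Dixon's 95% critical value for 4 values. Chance flags about 1 in 20 groups, so 5 of 87 is near what chance gives. Col14a1 was at 18.9 CPM in KO Treg 4, against 27.5 to 28.7 CPM in the other KO Treg libraries. Col6a6 was at 0.799 CPM in KO vehicle 1, against 1.86 to 1.93 CPM in the other KO vehicle libraries. Col3a1 was at 114 CPM in WT vehicle 4, against 240.1 to 264 CPM in the other WT vehicle libraries. Col4a4 was at 3.0 CPM in WT vehicle 2, against 1.27 to 1.44 CPM in the others of that group. Col13a1 was at 5.55 CPM in WT vehicle 1, against 1.08 to 1.52 CPM in the others of that group.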

How the results depend on the processing

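Of 695 values of single named collagens under the alternatives, 689 kept their direction and their side of the threshold, 4 changed sign and 2 newly passed, both for Col12a1 in KO vehicle against WT vehicle. These values leave out some named collagens in the comparisons with KO Treg. Among those left out were Col1a2, Col3a1 and Col6a3 in KO Treg against KO vehicle, with log2 fold changes of 0.04, 0.12 and -0.02. No collagen passed in the main fit, so a kept side of the threshold says little. For KO vehicle against WT vehicle, the log2 fold change of Col6a3 ran from -0.270 to 0.057 when single libraries were left out. It changed sign without KO vehicle 2 (0.057) or KO vehicle 3 (0.037), and was 0.28 without the thermogenic (Ucp1) libraries. The log2 fold change of Col3a1 in the same comparison was 0.016 without the thermogenic libraries. The cause of these changes was not tested. In KO vehicle against WT vehicle, 34 genes were called by edgeR, against 259 with DESeq2 (1 of them a collagen), 3 without the placental libraries, and 0 without the thermogenic libraries, with the number series as a covariate or in the lower series alone. Leaving out single libraries gave 1 (when KO vehicle 1, KO vehicle 2 or else WT vehicle 3 was left out) to 125 genes (without WT vehicle 4), and 0 to 1 collagens. In KO Treg against KO vehicle, the 1 called gene became 68 with DESeq2 and 0 with RLE size factors, with at least 1 CPM in 4 libraries, with only the 2 groups compared, without the robust fit, with the number series as a covariate, in the lower series alone, without the placental or the thermogenic libraries, and without any single library (0 to 0). In KO Treg against WT vehicle, DESeq2 called 1 gene. Without the 50 most counted other genes, collagens made up 0.289% of counts in KO Treg, 0.313% in KO vehicle and 0.296% in WT vehicle. The correlation of Col6a1 with Col6a3 was -0.16 without the placental libraries, and that of Col1a1 with Col3a1 was 0.54 in the lower series. No paired analysis was possible because the replicate numbers follow accession order and pair no animals. Low genes such as Col6a6, Col7a1 and Col20a1 are limited by depth.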
